A study of Mus musculus with 16 samples.

Results

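The genes of the major histocompatibility complex (MHC) and of antigen presentation were examined in mouse kidneys with and without Klotho-related renal failure. The set held 36 of the 30277 genes in the tables. It comprised the 26 protein-coding genes whose symbol begins with H2-, the mouse name of the MHC, and 10 partner genes chosen by name, B2m, Cd74, Ciita, Tap1, Tap2, Tapbp, Psmb8, Psmb9, Psmb10 and Nlrc5. By role, 24 were class I genes, 11 were class II genes and 1 belonged to neither class. That gene, H2-Ke6, lies in the complex but encodes a steroid dehydrogenase. On chromosome 17 lay 31 of the 36 genes, while B2m, Ciita, Cd74, Psmb10 and Nlrc5 lay elsewhere. A further 6 H2 genes annotated as pseudogenes or polymorphic pseudogenes are outside the set.

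Polyadenylated RNA was sequenced from perfused, flash-frozen kidneys of 129S1/SvlmJ mice made congenic for a recessive mutation of Klotho (Kl), a gene of the distal tubule whose product lets the hormone FGF23 act on the kidney. There were 5 Kl/Kl males with renal disease, 3 +/Kl males with healthy renal function, 4 Kl/Kl females with renal disease and 4 +/+ females with healthy renal function, aged 44 to 54 days. All mice share the 129S1/SvlmJ background. The male controls carry 1 mutant copy of Kl and the female controls carry none. Sex, the deposited table and the genotype of the controls therefore cannot be told apart. The labels do not say that each library came from a separate animal, so p-values measure the spread between these libraries.

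MHC class I molecules pair a heavy chain with the light chain B2m and show peptides from inside the cell to CD8+ T cells. Those peptides are cut by the proteasome, which exchanges its catalytic subunits for Psmb8, Psmb9 and Psmb10 under interferon-gamma, and are carried into the endoplasmic reticulum by the Tap1-Tap2 transporter. Class II molecules pair an alpha and a beta chain around the invariant chain Cd74, show peptides from endosomes to CD4+ T cells, and are made mainly by dendritic cells, macrophages and B cells. In the kidney nearly every cell carries some class I, while class II is borne mostly by resident mononuclear phagocytes and can be induced on tubular epithelium. Nlrc5 is the transactivator of class I genes, and Ciita that of class II genes.

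Values were TPM, in these tables reads divided by the genomic span of a gene, introns included. Levels of different genes are thus on a per-span scale that differs from the usual TPM, so a gene, a ratio or a sum is compared between groups only, and a ratio is no molar proportion. Estimated depths were 21.6 to 31.8 M reads per library. Kl itself stood at 0.0235 to 0.265 TPM in Kl/Kl males, against 4.14 to 15.1 TPM in +/Kl males, or 11.4 to 15.1 TPM without male control 3. Among females Kl stood at 0.0268 to 0.518 TPM in Kl/Kl kidneys, or 0.0920 to 0.518 TPM without Kl/Kl 3, against 9.19 to 21.2 TPM in +/+ kidneys. A pair of libraries stood apart. The library labelled female Kl/Kl 3 had a median Spearman correlation of 0.744 with all other libraries of both tables. Its summed tubule markers were 2.66 TPM, against 309 TPM in male control 3 and at least 590 TPM in every other library, and the heart muscle gene Nppa, the precursor of atrial natriuretic peptide, stood at 1185 TPM in it. Its 5 airway and alveolar markers summed to 782 TPM, against at most 0.412 TPM in every other library, so its values go against its label of kidney. The library of male control 3 had 54.3% of its TPM in mitochondrial genes, against at most 44.8% elsewhere. The counts and the main differences are given with and without these libraries. In bulk tissue, fewer cells of a type and less RNA per cell cannot be told apart.

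Class I genes were mostly higher in Kl/Kl males than in +/Kl males, but the difference passed the threshold for a single one of the 13 class I genes that averaged 1 TPM or more. That gene was H2-Q4, a nonclassical heavy chain of the Q region, at 2.30 times the mean of +/Kl males. The threshold was an adjusted p under 0.05 in limma on log2(TPM + 1), with the Benjamini-Hochberg method over 8439 genes. Against the 1 class I gene of 13 called higher and 0 called lower, 3.74% of all tested genes were called higher and 2.18% lower. With male control 3 left out the count was again 1 higher, H2-Q4, and 0 lower, where 3.16% of 8640 genes were called higher and 7.36% lower. Positive differences were found for 12 of the 13, with a median of 0.47 on the log2 scale, beside 71.8% of all tested genes and a median of 0.19. Leaving out male control 3 gave 11 positive differences and a median of 0.33, beside 51.4% of all tested genes and a median of 0.01.

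The promoters of 5 heavy and class II chains are shown because the comparisons below turn on these genes. They are the 250 bases upstream of the annotated start, from RefSeq on GRCm38.p6, an older build than the mm39 coordinates of the expression tables. The sequence is the reference one and may differ from that of 129S1/SvlmJ. Capitals mark matches, on either strand, to the motifs named below, and no matches overlap.
H2-K1, classical heavy chain, chr17:34000348-34000597, minus strand: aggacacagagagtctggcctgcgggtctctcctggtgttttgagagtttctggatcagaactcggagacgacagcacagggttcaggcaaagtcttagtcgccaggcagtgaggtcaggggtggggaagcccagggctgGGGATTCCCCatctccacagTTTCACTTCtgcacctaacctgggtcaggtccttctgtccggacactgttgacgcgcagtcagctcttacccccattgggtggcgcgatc
H2-D1, classical heavy chain, chr17:35262844-35263093, plus strand: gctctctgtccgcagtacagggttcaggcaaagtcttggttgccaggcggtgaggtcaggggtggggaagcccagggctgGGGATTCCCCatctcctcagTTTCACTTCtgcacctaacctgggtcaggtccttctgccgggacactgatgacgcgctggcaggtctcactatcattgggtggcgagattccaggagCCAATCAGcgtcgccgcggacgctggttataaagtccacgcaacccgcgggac
H2-Q4, nonclassical heavy chain, chr17:35379367-35379616, plus strand: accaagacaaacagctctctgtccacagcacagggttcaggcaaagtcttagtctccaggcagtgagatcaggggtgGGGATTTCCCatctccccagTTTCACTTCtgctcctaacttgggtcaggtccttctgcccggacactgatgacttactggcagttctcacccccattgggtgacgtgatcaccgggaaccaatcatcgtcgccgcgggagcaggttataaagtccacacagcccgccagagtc
H2-Q2, nonclassical heavy chain, chr17:35342057-35342306, plus strand: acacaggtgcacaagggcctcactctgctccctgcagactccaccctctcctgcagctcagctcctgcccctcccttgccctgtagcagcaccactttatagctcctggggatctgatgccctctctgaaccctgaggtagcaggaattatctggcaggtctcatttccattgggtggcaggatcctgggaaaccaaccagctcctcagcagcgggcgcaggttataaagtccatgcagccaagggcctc
H2-Aa, class II alpha chain, chr17:34287824-34288073, minus strand: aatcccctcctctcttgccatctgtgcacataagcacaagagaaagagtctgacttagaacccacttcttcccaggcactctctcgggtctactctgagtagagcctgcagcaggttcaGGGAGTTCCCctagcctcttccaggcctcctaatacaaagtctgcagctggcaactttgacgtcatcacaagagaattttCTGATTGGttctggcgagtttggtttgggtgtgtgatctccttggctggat

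RefSeq promoters were matched for 29 of the 36 genes by symbol. The 7 others were Cd74, Ciita, H2-Ab1, H2-Q1, H2-T24, Nlrc5 and Tap2. The run GAANTGAAA, an interferon-response-like sequence printed above as its reverse complement TTTCACTTC, was present in 7 of 20 class I promoters and 0 of 8 class II promoters, against 1.5% of 32851 promoters of the same length. Its carriers were H2-D1, H2-K1, H2-M3, H2-Q10, H2-Q4, H2-Q6 and H2-Q7, which are close relatives of each other. A longer kappa-B-like sequence, the 10 capitals that precede TTTCACTTC in H2-K1 and H2-D1, was present in the promoters of H2-D1, H2-K1 and H2-Q6 and in 0.0852% of all promoters. These 2 motifs were added after the sequences had been read. The kappa-B pattern GGGA, any base, TT, any base, CC was present in B2m, H2-Q4 and H2-Aa and in 0.98% of promoters. The Y box CTGATTGG, bound by NF-Y, was present in 7 of 20 class I and 4 of 8 class II promoters, against 3.83% of all. The classical interferon-stimulated response element, GAAA repeated after any 2 bases, matched B2m, H2-T22 and H2-T23, against 2.98% of all promoters. The interferon-gamma activated sequence TTCNNNGAA matched 2 of 20 class I and 1 of 8 class II promoters, against 7.02%. The H2-Q2 window matched none of these motifs. A match is a description of the sequence and not of binding.

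Among the classical heavy chains, H2-K1 (chr17:34214991-34219322 on mm39) had 94.6, 70.1, 64.1, 77.2 and 60.7 TPM in Kl/Kl males, against 50.5, 43.5 and 27.0 TPM in +/Kl males. The groups did not overlap. Means were 73.3 ± 13.4 TPM in Kl/Kl males (SD, n = 5) and 40.3 ± 12.1 TPM in +/Kl males (SD, n = 3), a ratio of 1.82, or 1.56 without male control 3. The log2 difference was 0.88 ± 0.25 (SE), with a limma adjusted p of 0.0588, and 0.62 ± 0.19 with 0.0704 without that library. H2-K1 thus missed the threshold in both fits. It passed it after median-of-ratios scaling (difference 0.62, limma adjusted p = 0.0295), which sets the median gene to equal levels.

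H2-D1, the other classical heavy chain (chr17:35481706-35486476), had 63.6, 46.5, 39.9, 52.5 and 41.7 TPM in Kl/Kl males, against 45.0, 38.0 and 25.6 TPM in +/Kl males. These ranges overlapped, and the difference was 0.44 ± 0.24 with a limma adjusted p of 0.261, and 0.22 ± 0.20 with 0.473 once male control 3 was left out. The light chain B2m, shared by all class I heavy chains, had 39.9, 42.1, 33.4, 33.1 and 34.5 TPM in Kl/Kl males, against 36.4, 36.6 and 34.0 TPM in +/Kl males. Its difference was 0.03 ± 0.18, and its sign changed with scaling (-0.23). Within each male library, H2-K1 stood at 1.67 to 2.37 times B2m in Kl/Kl males, against 0.794 to 1.39 times in +/Kl males. H2-K1 relative to H2-D1 was likewise apart, at 1.46 to 1.61 in Kl/Kl males against 1.05 to 1.15 in +/Kl males. A ratio shows unequal change and not which gene changed. These were among 9 ratios formed after the values had been seen, and none was tested.

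The nonclassical heavy chain H2-Q4 (chr17:35598593-35604267) had 9.26, 6.11, 4.95, 8.36 and 7.35 TPM in Kl/Kl males, against 3.30, 3.11 and 2.98 TPM in +/Kl males. Every Kl/Kl male was above every +/Kl male, and the controls were tight. The difference was 0.96 ± 0.20 with a limma adjusted p of 0.0202, and 0.94 ± 0.21 with 0.0291 without male control 3. The call was lost with male control 1 left out (0.0518), with male control 2 left out (0.0733), with all genes in the fit (0.0507) and with a replicate block (0.0977), while the difference stayed between 0.87 and 1.07 across these and every other omission of 1 male library. The library names carry the letters FDK or DK, whose meaning the labels do not give. Within FDK males H2-Q4 stood at 7.35 to 9.26 TPM in Kl/Kl kidneys against 3.11 and 3.30 TPM in +/Kl kidneys, and within DK males at 4.95 and 6.11 TPM against 2.98 TPM in the only control. Neighbouring H2-Q7, a Qa-2 chain, had 10.9, 9.00, 7.52, 6.36 and 8.86 TPM in Kl/Kl males, against 4.57, 5.42 and 5.24 TPM in +/Kl males. Its groups did not overlap either, with a difference of 0.63 ± 0.19 and a limma adjusted p of 0.0679, or 0.65 ± 0.18 and 0.0573 without male control 3. Class I heavy chains are near-identical copies, and the sources used here do not say how reads that match several of them were assigned, so values of single Q-region genes are uncertain.

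H2-Q2, also a Q-region heavy chain (chr17:35561218-35565739), lay under the 1 TPM minimum and was singled out after its values had been seen. It had 0.971, 0.901, 0.901, 1.12 and 0.900 TPM in Kl/Kl males, against 0.247, 0.169 and 0.154 TPM in +/Kl males, or an estimated 100 to 124 reads against 21 to 29. Its mean in Kl/Kl males was 5.04 times that in +/Kl males, or 4.61 times without male control 3. With the minimum lowered to 0.3 TPM, H2-Q2 entered the fit only through the Kl/Kl males, so its difference of 0.72 ± 0.08, or 0.70 ± 0.07 without male control 3, is a description. H2-Q10, whose product is secreted by the liver, had 0.890, 1.20, 1.28, 1.19 and 0.531 TPM in Kl/Kl males, against 0.307, 0.502 and 0.214 TPM in +/Kl males. It was called in that fit (0.58 ± 0.14, limma adjusted p = 0.0434) but not without male control 3 (0.51, 0.0873). At this minimum 3 of 18 class I genes, H2-Q2 among them, were called higher and 0 lower, against 3.15% of all genes higher and 2.1% lower. When male control 3 was left out the numbers were 2 higher and 0 lower, against 2.36% and 5.8%. Both counts of genes called higher include H2-Q2, so they are descriptions too.

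H2-T23 and H2-T22 of the T region had differences of opposite sign in males. H2-T23, the Qa-1 chain that binds the NK cell receptor CD94/NKG2, had 32.1, 26.4, 16.1, 29.8 and 23.4 TPM in Kl/Kl males, against 18.7, 16.6 and 11.5 TPM in +/Kl males. H2-T22, which is recognised by gamma-delta T cells, had 8.54, 8.27, 6.30, 7.83 and 7.60 TPM in Kl/Kl males, against 10.5, 10.4 and 7.23 TPM in +/Kl males. The ratio of H2-T22 to H2-T23 within a library was 0.263 to 0.391 in Kl/Kl males and 0.561 to 0.628 in +/Kl males, with no overlap. Neither gene was called: the differences were 0.67 ± 0.26 for H2-T23 (limma adjusted p = 0.131) and -0.24 ± 0.18 for H2-T22 (0.405). Leaving out male control 3 gave 0.48 ± 0.25 for H2-T23 (0.217) and -0.40 ± 0.13 for H2-T22 (0.0771). After median-of-ratios scaling H2-T22 was called lower, at -0.48 with all male libraries (limma adjusted p = 0.0250) and -0.40 without male control 3 (0.0391).

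That scaling moved the median of all genes in males to 0.01, against 0.19 with the deposited scale. It left 2 class I genes called higher, H2-Q4 and H2-K1, and 1 lower, H2-T22, against 5.77% of all genes higher and 8.24% lower. Over all genes the calls were 487 higher and 695 lower with the scaling, against 316 higher and 184 lower on the deposited scale. With the scaling and without male control 3, H2-Q4, H2-K1, H2-Q7 and Psmb10 were called higher and H2-T22 lower, against 5.44% and 7.86% of all genes. No class II gene was called under either.

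**Figure D1:**
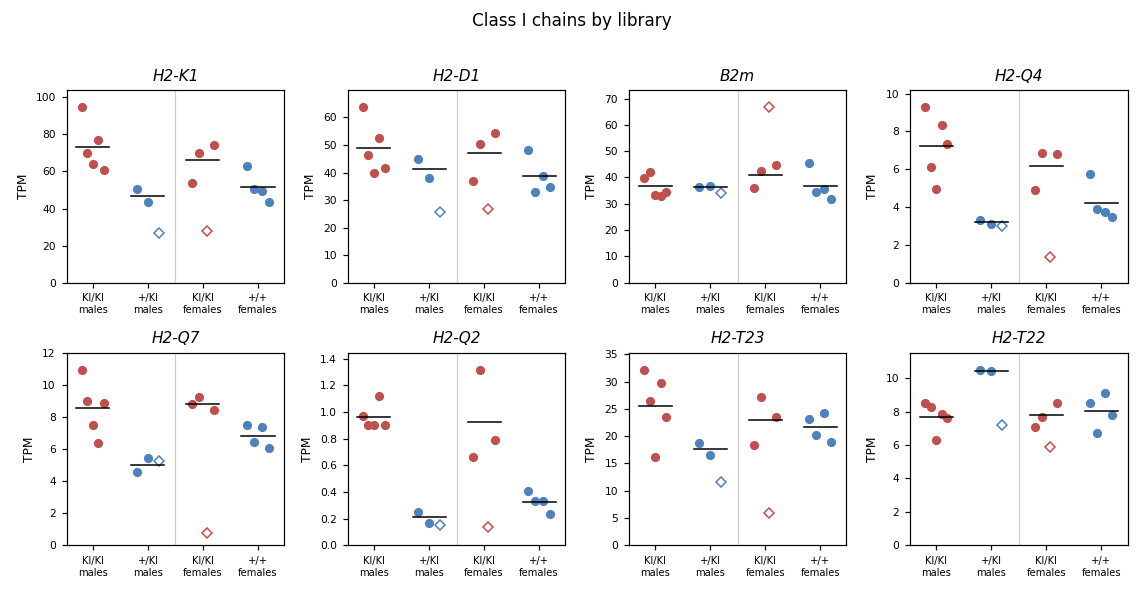
TPM of 8 class I genes by library, with Kl/Kl left of control in males and then in females. Each point is 1 library, open diamonds are female Kl/Kl 3 and male control 3, and the bar is the group mean without them; H2-K1, H2-Q4, H2-Q7 and H2-Q2 of Kl/Kl males sit above all +/Kl males, while B2m overlaps.

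Groups that did not overlap in males, with all libraries, were found for 4 of the 13 tested class I genes, H2-K1, H2-Q4, H2-Q7 and Psmb10, all higher in Kl/Kl. Over all genes, 19.1% were apart and higher and 4.4% apart and lower in the same libraries, so non-overlap in males is frequent. Without male control 3, 4 class I genes were apart and higher and 1, H2-T22, apart and lower, against 20.2% and 22.7% of all genes.

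The peptide-loading genes of males were mostly higher in Kl/Kl without a call. Tap1, a chain of the peptide transporter, had 1.89, 1.53, 0.695, 1.63 and 1.57 TPM in Kl/Kl males, against 0.853, 0.795 and 0.491 TPM in +/Kl males. Male Kl/Kl 3 lay within the control range and the other 4 above it. The difference was 0.51 ± 0.18 with a limma adjusted p of 0.101, and 0.64 with an adjusted p of 0.0362 once male Kl/Kl 3 was left out. Leaving out male control 3 instead gave 0.41 ± 0.19 (0.178). Tap1 averaged 1 TPM or more only through the Kl/Kl males. Tap2, its partner, and Tapbp, the tapasin that bridges transporter and heavy chain, differed by 0.42 ± 0.18 and 0.41 ± 0.21, with limma adjusted p of 0.159 and 0.232.

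Of the immunoproteasome subunits, Psmb10 had 4.23, 5.34, 4.04, 3.67 and 4.26 TPM in Kl/Kl males, against 2.90, 2.94 and 2.52 TPM in +/Kl males. The groups did not overlap, and the difference was 0.48 ± 0.15 with a limma adjusted p of 0.0808, or 0.43 ± 0.13 with 0.0632 when male control 3 was left out. Psmb8 had 2.13, 2.80, 1.39, 1.83 and 1.84 TPM in Kl/Kl males, against 1.66, 1.33 and 1.27 TPM in +/Kl males, which overlapped (0.30 ± 0.16, limma adjusted p = 0.259). Psmb9 stayed below the 1 TPM minimum at 0.342 to 0.853 TPM in Kl/Kl males and 0.419 to 0.456 TPM in +/Kl males. Nlrc5, the class I transactivator, was at 0.0171, 0.0230, 0.00949, 0.0131 and 0.0184 TPM in Kl/Kl males, against 0.0165, 0.00818 and 0.00870 TPM in +/Kl males. These overlapping levels are an estimated 26 to 61 reads against 21 to 40, so a change of Nlrc5 was hardly measurable at this depth.

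**Figure D2:**
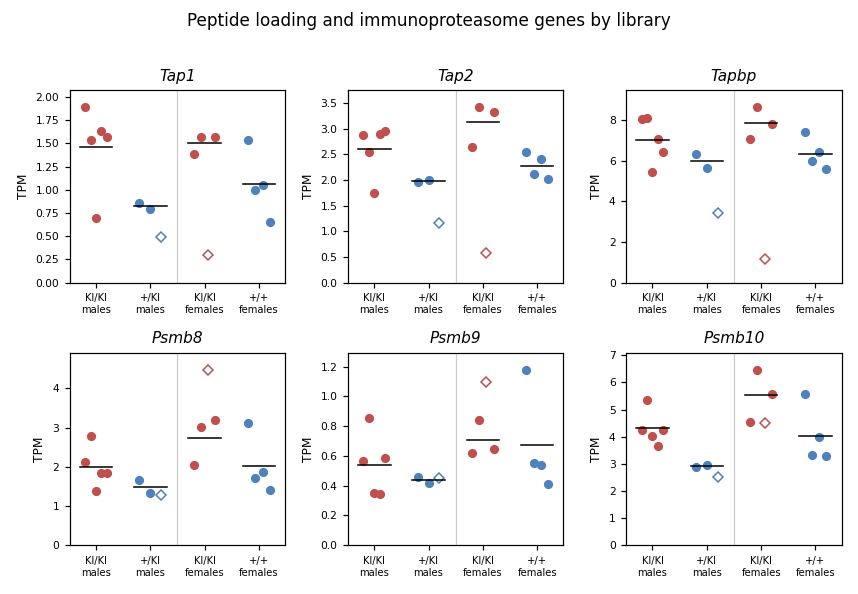
TPM of the peptide transporter, tapasin and immunoproteasome genes by library, drawn as for the class I chains. Psmb10 of Kl/Kl males (3.67 to 5.34 TPM) lies above +/Kl males (2.52 to 2.94 TPM), and the groups overlap for the other genes.

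Class II genes of males were not called in either direction: 0 of the 5 that averaged 1 TPM or more passed. Over all tested genes 3.74% were called higher and 2.18% lower, so 0 of 5 is not particular to class II. Without male control 3 the count was again 0 of 5, against 3.16% higher and 7.36% lower. The median difference of the 5 genes was 0.09, below the 0.19 of all genes, and -0.11 without male control 3, beside 0.01. H2-Aa, the alpha chain of the A molecule (chr17:34501718-34506798), had 8.26, 15.4, 6.03, 10.0 and 15.1 TPM in Kl/Kl males, against 12.2, 9.39 and 6.59 TPM in +/Kl males. The invariant chain Cd74 had 14.1, 17.8, 6.88, 14.8 and 20.4 TPM in Kl/Kl males, against 18.1, 13.9 and 8.87 TPM in +/Kl males. Both overlapped widely, with differences of 0.16 ± 0.30 and 0.09 ± 0.33 that turned negative without male control 3 (-0.05 and -0.17) and after median-of-ratios scaling (-0.07 and -0.15). H2-Eb1, the beta chain of the E molecule (chr17:34524841-34535649), had 4.13, 7.46, 2.35, 4.59 and 7.50 TPM in Kl/Kl males, against 6.12, 4.58 and 3.18 TPM in +/Kl males. Male Kl/Kl 3 was lowest for all of these and Kl/Kl 2 and 5 were the highest Kl/Kl males.

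H2-Ab1, the beta chain that pairs with H2-Aa (chr17:34476663-34488394), had 3.77, 6.05, 2.57, 4.53 and 6.96 TPM in Kl/Kl males, against 8.74, 7.14 and 5.17 TPM in +/Kl males. It was the class II gene with the most negative difference, -0.50 ± 0.27 (limma adjusted p = 0.245). Its groups did not overlap once male control 3 was left out, when the difference was -0.68 ± 0.29 (0.151). Relative to its partner, H2-Aa stood at 2.16 to 2.55 times H2-Ab1 within each Kl/Kl male, against 1.27 to 1.40 times within each +/Kl male. H2-Eb1 stood at 0.913 to 1.23 times H2-Ab1 in Kl/Kl males, against 0.615 to 0.700 in +/Kl males. Cd74 stood at 2.68 to 3.74 times H2-Ab1 in Kl/Kl males, against 1.72 to 2.07 in +/Kl males. All 3 ratios were apart, while the level of each of the numerator genes overlapped. H2-DMb1 to H2-Ab1 was apart as well, at 0.362 to 1 in Kl/Kl males against 0.260 to 0.352 in +/Kl males. These ratios share H2-Ab1 as denominator and are not separate observations. Ratios that overlapped with all male libraries were H2-D1 to B2m and H2-Q4 to H2-K1. How often ratios of other gene pairs are apart was not computed.

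H2-DMb1, a chain of the peptide-exchange molecule DM, ranged over 1.37 to 3.17 TPM in Kl/Kl males and 1.34 to 2.55 TPM in +/Kl males. Ciita had 0.0565, 0.143, 0.0505, 0.0713 and 0.207 TPM in Kl/Kl males, against 0.160, 0.165 and 0.0888 TPM in +/Kl males, with 3 of 5 Kl/Kl males below all controls. H2-DMa, H2-DMb2, H2-Oa, H2-Ob and H2-Eb2, which complete the class II set, stood at 0.871 TPM or less in every library. H2-Ke6 stood at 32.3 to 35.4 TPM in Kl/Kl males and 28.7 to 37.2 TPM in +/Kl males.

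**Figure D3:**
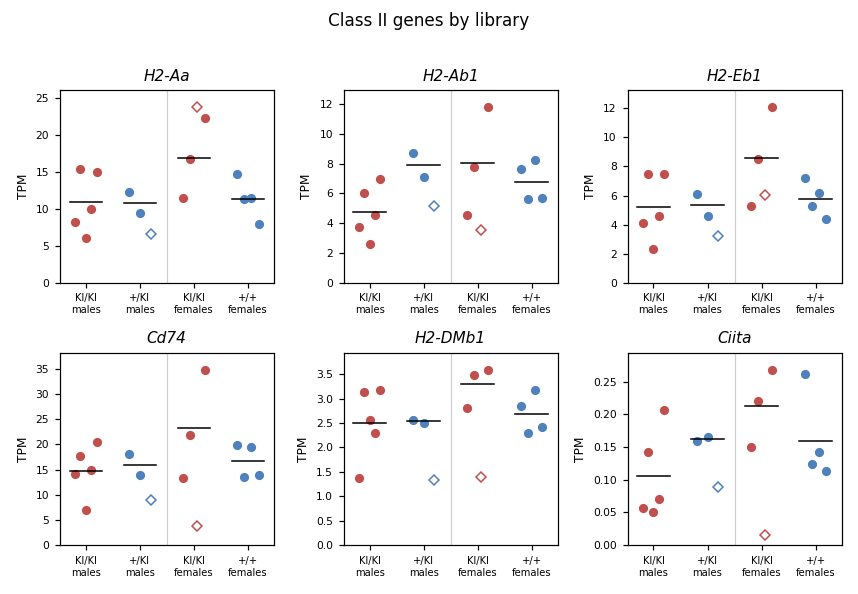
TPM of 6 class II genes by library, drawn as for the class I chains. The Kl/Kl males overlap the +/Kl males for H2-Aa, H2-Eb1, Cd74 and H2-DMb1, and for H2-Ab1 they reach 6.96 TPM at most, below male controls 1 and 2.

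In females 0 of the 13 class I and 0 of the 5 class II genes tested were called with all libraries. Over all 8596 genes 0% were called higher and 0.0349% lower, so calls were rare in this table. By limma's unadjusted p under 0.05, 0 class I genes and 1 class II gene, H2-Aa, were higher, against 3.09% of all tested genes higher and 1.72% lower. Voom on estimated reads also called 0 of both classes. Without female Kl/Kl 3, again 0 of either class were called, against 0.0572% of all genes higher and 0.0457% lower, and the unadjusted count was 7 class I genes higher and 0 class II genes, where 13.9% of all tested genes were higher and 4.6% lower by the same measure. Without that library class I differences were positive for 12 of 13 genes with a median of 0.30, and class II differences for 5 of 5 with a median of 0.38, beside 69.5% of all tested genes and a median of 0.06. With that library included the medians were 0.05 for class I and 0.01 for class II, beside -0.16 over all genes.

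H2-K1 had 53.9, 69.9, 28.0 and 74.0 TPM in Kl/Kl females, against 62.8, 50.5, 49.5 and 43.5 TPM in +/+ females. The value of 28.0 is that of female Kl/Kl 3. Without it the difference was 0.35 ± 0.15 with a limma adjusted p of 0.260, and 0.05 ± 0.31 with it. H2-D1 had 36.8, 50.2, 26.7 and 54.5 TPM in Kl/Kl females, against 48.1, 32.8, 38.7 and 34.8 TPM in +/+ females. B2m had 35.9, 42.5, 66.6 and 44.7 TPM in Kl/Kl females, against 45.6, 34.5, 35.6 and 31.7 TPM in +/+ females. Female Kl/Kl 3 was thus lowest for both heavy chains and highest for the light chain.

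H2-Q4 had 4.90, 6.87, 1.34 and 6.81 TPM in Kl/Kl females, against 5.75, 3.89, 3.73 and 3.50 TPM in +/+ females. Without Kl/Kl 3 it differed by 0.47 ± 0.16 (limma adjusted p = 0.190), and +/+ female 1 stood within the Kl/Kl range. H2-Q2 had 0.661, 1.31, 0.137 and 0.792 TPM in Kl/Kl females, against 0.404, 0.335, 0.330 and 0.233 TPM in +/+ females. Apart from Kl/Kl 3, every Kl/Kl female was above every +/+ female, at 2.83 times the mean. With the minimum at 0.3 TPM that difference was 0.52 with a limma adjusted p of 0.119.

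Tap2 and H2-Q7 were the tested genes whose female groups did not overlap once Kl/Kl 3 was left out, 2 of 13 class I genes apart and higher, against 12.2% of all genes higher and 3.9% lower. With every library 0 were apart, against 4.79% and 3.54%. Tap2 had 2.65, 3.42, 0.581 and 3.32 TPM in Kl/Kl females, against 2.54, 2.12, 2.40 and 2.03 TPM in +/+ females. H2-Q7 had 8.79, 9.22, 0.756 and 8.41 TPM in Kl/Kl females, against 7.49, 6.40, 7.39 and 6.04 TPM in +/+ females. Without Kl/Kl 3 the differences were 0.33 ± 0.09 for Tap2 and 0.33 ± 0.08 for H2-Q7, with limma adjusted p of 0.122 and 0.113. Tap1 had 1.39, 1.56, 0.301 and 1.56 TPM in Kl/Kl females, against 1.53, 1.00, 1.05 and 0.658 TPM in +/+ females. Psmb8 had 2.04, 3.02, 4.47 and 3.18 TPM in Kl/Kl females, against 3.11, 1.72, 1.86 and 1.40 TPM in +/+ females. Nlrc5 had 0.0288, 0.0265, 0.00913 and 0.0424 TPM in Kl/Kl females, against 0.0590, 0.0172, 0.0179 and 0.0109 TPM in +/+ females.

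Of the class II chains, H2-Aa had 11.4, 16.7, 23.7 and 22.3 TPM in Kl/Kl females, against 14.7, 11.3, 11.5 and 7.97 TPM in +/+ females. Its difference was 0.64 ± 0.27 with a limma adjusted p of 0.745, and 0.51 ± 0.24 with 0.296 without Kl/Kl 3. H2-Ab1 had 4.52, 7.80, 3.55 and 11.8 TPM in Kl/Kl females, against 7.64, 5.63, 8.24 and 5.68 TPM in +/+ females. Cd74 had 13.2, 21.8, 3.74 and 34.7 TPM in Kl/Kl females, against 19.9, 13.5, 19.5 and 14.0 TPM in +/+ females. H2-Eb1 had 5.25, 8.50, 6.03 and 12.1 TPM in Kl/Kl females, against 7.24, 5.27, 6.15 and 4.40 TPM in +/+ females. Ciita had 0.150, 0.220, 0.0158 and 0.268 TPM in Kl/Kl females, against 0.261, 0.124, 0.142 and 0.113 TPM in +/+ females. Female Kl/Kl 4 was the highest Kl/Kl female for H2-Ab1, H2-Eb1, Cd74 and Ciita, and apart from Kl/Kl 3 the lowest Kl/Kl female for each was Kl/Kl 1. Within libraries H2-Eb1 stood at 1.02 to 1.70 times H2-Ab1 in Kl/Kl females, against 0.746 to 0.948 in +/+ females. This ratio did not overlap in either sex. Without Kl/Kl 3, Cd74 to H2-Ab1 and H2-K1 to B2m were also apart in females, while the other ratios overlapped. H2-Aa stood at 1.90 to 2.53 times H2-Ab1 in Kl/Kl females, against 1.39 to 2.01 in +/+ females, and H2-K1 at 1.36 to 1.47 times H2-D1 against 1.25 to 1.54. The ratio of H2-T22 to H2-T23 was 0.283 to 0.388 in Kl/Kl females, against 0.334 to 0.411 in +/+ females.

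The test of whether the change differed between the sexes called 0 of 19 genes of the set, with all 16 libraries and also without the 2 that stood apart. Over all genes it called 0.211% with all libraries and 3.89% without them. By limma's unadjusted p under 0.05 it gave 0 genes and, without those libraries, 1 gene, H2-T22 (female minus male difference 0.36, unadjusted p = 0.0419 and adjusted p = 0.228 by limma). By the same measure 7.73% of all tested genes, and 20.3% without those libraries, passed in either direction. No difference between the sexes was thus shown for H2-Q4, at -0.47 ± 0.28 without the libraries that stood apart, or for H2-Ab1, at 0.83 ± 0.43.

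**Figure D4:**
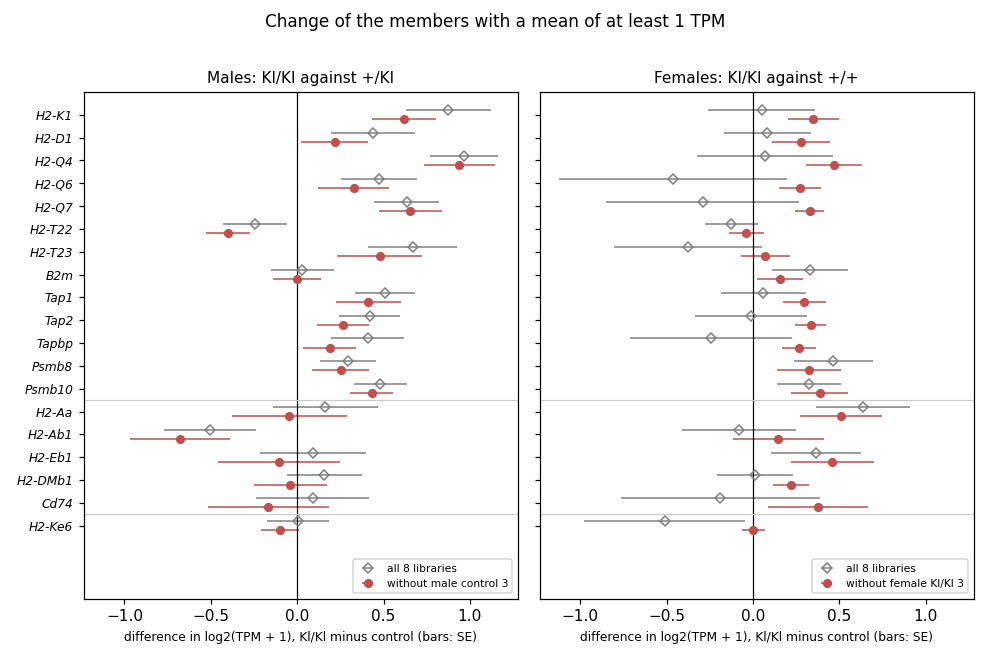
Difference in log2(TPM + 1) between Kl/Kl and control with its SE, for the 19 genes that averaged 1 TPM or more, in males (left) and females (right). Open diamonds use all 8 libraries of a sex and filled points leave out male control 3 or female Kl/Kl 3; class I stands at the top, class II below it and H2-Ke6 at the foot, and the female differences without Kl/Kl 3 are mostly between 0 and 0.51.

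Genes that act with these molecules were grouped into 8 lists. In the class I assembly list, which holds the chaperones of heavy-chain folding, 0 of 6 tested genes were called in males with all libraries. Without male control 3, 3 of 6 fell: Calr (calreticulin, -1.19, limma adjusted p = 0.0240), Hspa5 (BiP, -1.21, 0.0340) and Pdia3 (ERp57 of the loading complex, -0.66, 0.0360). Among all genes tested in those libraries 7.36% were called lower. Calr averaged 66.4 ± 14.6 TPM in Kl/Kl males (SD, n = 5) and 151 ± 28.1 TPM in male controls 1 and 2 (SD, n = 2). With male control 3 included, the controls averaged 125 ± 48.6 TPM (SD, n = 3). Of the constitutive proteasome genes and activators 0 of 7 were called with all male libraries, and without male control 3 the 1 gene that fell was Psmb5, the subunit that Psmb8 replaces (-0.58, limma adjusted p = 0.0244).

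Of the class I-like genes outside the complex, 4 were tested in males, 1 called higher and 1 lower. Over all tested genes 3.74% were called higher and 2.18% lower. Hfe, which binds B2m and regulates iron uptake, averaged 2.33 ± 0.589 TPM in Kl/Kl males (SD, n = 5) and 0.742 ± 0.191 TPM in +/Kl males (SD, n = 3). It rose by 0.92 (limma adjusted p = 0.0095), and by 0.83 (0.0217) without male control 3. Azgp1, a secreted class I-like lipid-mobilising protein, averaged 0.0862 ± 0.0275 TPM in Kl/Kl males (SD, n = 5) and 2.55 ± 0.318 TPM in +/Kl males (SD, n = 3), a difference of -1.70. Azgp1 averaged 1 TPM or more only through the controls, and without male control 3 its mean was under the minimum. Hfe averaged 1 TPM or more only through the Kl/Kl males. The differences of Hfe and Azgp1 in males are therefore descriptions.

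Most of the listed interferon genes averaged under 1 TPM in males and were not tested. Of 10 interferon-gamma signalling genes 4 were tested and 0 called. Of 11 guanylate-binding and related GTPases 1 was tested and 0 called. Over all tested genes 3.74% were called higher and 2.18% lower. Irf1, an interferon-gamma-induced activator of class I genes, averaged 1.74 ± 0.367 TPM in Kl/Kl males (SD, n = 5) and 1.31 ± 0.346 TPM in +/Kl males (SD, n = 3). Of 10 type I interferon-induced genes 4 were tested and 1 rose, Ifit2, an inhibitor of viral translation. Ifit2 rose by 0.84 (limma adjusted p = 0.0059), and by 0.75 (0.0118) without male control 3, though it averaged 1 TPM or more only through the Kl/Kl males. None of the 5 class II promoter factors and none of the 6 class II processing and co-stimulation genes tested in males was called. By limma's unadjusted p under 0.05 each of these 2 lists had 2 genes higher, against 21% of all tested genes higher and 5.92% lower. Leaving out male control 3 gave 2 higher and 1 lower for the promoter factors and 1 higher for the processing genes, against 14.2% and 17.6% of all tested genes. In females 0 genes of the 8 lists were called with or without Kl/Kl 3, where Hfe differed by 0.41 without it (limma adjusted p = 0.0669).

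Markers of immune and other cells were also compared between the groups. The 8 macrophage markers summed to 11.9 to 24.6 TPM in Kl/Kl males, against 7.02 to 12.9 TPM in +/Kl males, or 9.38 to 12.9 TPM without male control 3, and to 11.9 to 40.6 TPM in Kl/Kl females without Kl/Kl 3, against 9.26 to 17.4 TPM in +/+ females. Of the macrophage markers Lyz2 and Cd68 were called higher in males (1.39 and 0.75, limma adjusted p = 0.0033 and 0.0431), the second of them not without male control 3 (0.0674), and Cd68 averaged 1 TPM or more only through the Kl/Kl males. Csf1r, the receptor that macrophages need, averaged 1.36 ± 0.413 TPM in Kl/Kl males (SD, n = 5) and 2.47 ± 0.645 TPM in +/Kl males (SD, n = 3). The 6 dendritic cell markers summed to 0.408 to 0.828 TPM in Kl/Kl males, against 0.233 to 0.381 TPM in +/Kl males. The sum mainly follows Itgax, at 0.119 to 0.409 TPM in Kl/Kl males against 0.0317 to 0.0572 TPM in +/Kl males. Zbtb46 was also apart, at 0.173 to 0.19 TPM against 0.105 to 0.13 TPM. Flt3 and Clec9a overlapped, and so did Cd209a and Xcr1, which did not exceed 0.05 TPM in any male. The 5 pan-leukocyte markers summed to 0.844 to 2.14 TPM in Kl/Kl males, against 0.813 to 1.25 TPM in +/Kl males, and the 6 endothelial markers to 16.2 to 30.9 TPM against 8.74 to 16.9 TPM, or 15.4 to 16.9 TPM without male control 3. The 6 T cell markers summed to 0.0882 to 0.409 TPM in Kl/Kl males, against 0.110 to 0.193 TPM in +/Kl males. The 5 B cell markers were near 0 in males, at 0.212 to 0.279 TPM in Kl/Kl and 0.250 to 0.279 TPM in +/Kl kidneys. The 4 plasma cell markers summed to 25.2 to 63.9 TPM in Kl/Kl males, against 98.4 to 117 TPM in +/Kl males, with Igkc, the kappa light chain of antibodies, called lower (-2.98, limma adjusted p = 0.0148, and -2.97, 0.0444 without male control 3). This sum follows Igkc, at 3.61 to 26.6 TPM against 84.1 to 85.5 TPM. Jchain was also lower, at 0.084 to 0.7 TPM against 1.8 to 2.62 TPM. Mzb1 overlapped but reached higher values in Kl/Kl males, at 0.658 to 1.93 TPM against 0.524 to 0.772 TPM, and Xbp1 overlapped. The 3 podocyte markers summed to 12.2 to 15.7 TPM in Kl/Kl males, against 4.79 to 9.91 TPM in +/Kl males, or 9.67 to 9.91 TPM without male control 3. Nphs1 and Podxl were called higher once male control 3 was left out (0.44 and 0.52, limma adjusted p = 0.0382 and 0.0351). The T cell markers of females without Kl/Kl 3 summed to 0.192 to 0.588 TPM in Kl/Kl kidneys, against 0.0900 to 0.183 TPM in +/+ kidneys. That sum follows Cd8a, at 0.13 to 0.446 TPM in those Kl/Kl females against 0.026 to 0.101 TPM in +/+ females. Each of the other T cell markers overlapped, with Cd3e at 0.0031 to 0.022 TPM against 0.0068 to 0.025 TPM. Of the sums given here, those of dendritic, plasma cell and podocyte markers in males, and of T cell markers in females without Kl/Kl 3, did not overlap. The dendritic, plasma cell and podocyte sums of females without Kl/Kl 3 overlapped. Single genes were apart and higher for 19.1% of all tested genes in males, and apart and lower for 4.4%. In females without Kl/Kl 3 these shares were 12.2% and 3.9%. The part of these markers in the class I and class II values was not tested.

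Levels were also summed within each class. H2-K1 and H2-D1 together stood at 102 to 158 TPM in Kl/Kl males, against 52.6 to 95.5 TPM in +/Kl males, or 81.4 to 95.5 TPM without male control 3, with no overlap. In females without Kl/Kl 3 they stood at 90.7 to 129 TPM in Kl/Kl kidneys, against 78.3 to 111 TPM in +/+ kidneys, which overlapped. All class II genes together stood at 21.0 to 54.9 TPM in Kl/Kl males, against 25.8 to 49.0 TPM in +/Kl males, or 38.5 to 49.0 TPM without male control 3. The Kl/Kl males thus spanned the whole control range of class II and exceeded it at both ends.

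The 17 genes of the set under the 1 TPM minimum were Ciita, H2-DMa, H2-DMb2, H2-Eb2, H2-M2, H2-M3, H2-M5, H2-M9, H2-Oa, H2-Ob, H2-Q1, H2-Q10, H2-Q2, H2-T24, H2-T3, Nlrc5 and Psmb9. H2-M9, of the vomeronasal M region, had its only appreciable value, 1.90 TPM, in female Kl/Kl 3 and at most 0.0130 TPM elsewhere. H2-T24 stood at 1.33 times the +/+ mean in Kl/Kl females without Kl/Kl 3, and those groups did not overlap, while it stood at 1.14 times the +/Kl mean in Kl/Kl males, or 0.944 times without male control 3.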

How the data were processed

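Per the labels, polyadenylated RNA was extracted with a miRNeasy kit and libraries were made with a directional kit. The authors deposited 2 tables of TPM, a male and a female one of 8 libraries, with gene starts and stops. The submitters' processing notes name Partek and build mm39. Aligner, counting, use of strand and treatment of multi-mapping reads are not stated in the labels or files used here. In the deposited tables every column of a table has the same TPM total, 285327 in males and 265288 in females, no value is 0, and the lowest values equal about 0.0001 read over the genomic span. Values times span over this offset gave estimated reads, not counts: 72.8% to 75.2% of low genes fell within 0.05 of a whole read, too few to recover counts, and precision is given by the spread between libraries.

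Differences of log2(TPM + 1) were fitted with limma 3.58.1 (R 4.3.3; trend) for genes averaging 1 TPM or more, within each table, with Benjamini-Hochberg adjustment over all tested genes. A difference on this scale understates the change of low genes. The sexes' changes were compared in a 4-group model. The fit was tested on simulated data. Alternatives were a pseudocount of 0.1, no minimum or 0.3 TPM, median-of-ratios scaling, a replicate block, the letters of the library name, voom on estimated reads and leaving out each library. Combinations with the libraries that stand apart left out were added after the data were seen. Python 3.11.15, pandas 2.3.3 and matplotlib 3.10.9 handled tables and plots. Promoters were read from a RefSeq table.

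Genes named with every value are those past the threshold in a fit, and by rule H2-K1, H2-D1, B2m, Nlrc5, Tap1, Psmb8, H2-Aa, H2-Ab1, H2-Eb1, Cd74 and Ciita. H2-Q2, H2-Q10, H2-Q7, H2-T22, H2-T23, Tap2 and Psmb10 and the ratios were chosen after their values were seen. The gene set and lists were chosen with earlier results of these data known.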

Additional observations from a re-analysis of the deposited data

Results flagged for a closer look

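Of 72 groups of 4 or 5 libraries examined for 24 genes, 5 held a library far from the rest of its group by Dixon's criterion, where chance gives about 1 in 20. The library labelled female Kl/Kl 3 accounted for 4 of them, and was the lowest each time. H2-Ke6 was 7.54 TPM in it, H2-Q6 was 0.903 TPM, H2-Q7 was 0.756 TPM and Tap1 was 0.301 TPM. Its Umod and Slc34a1, genes of the thick ascending limb and of the proximal tubule, were 1.68 and 0.343 TPM. The fifth was Nlrc5 in +/+ female 1, the highest of its group at 0.0590 TPM, beside 0.0109 to 0.0179 TPM in the other 3.

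Among H2 genes outside the protein-coding set, a pair annotated as polymorphic pseudogenes had male groups that did not overlap. H2-Q5 ranged over 0.524 to 1.02 TPM in Kl/Kl males, against 0.333 to 0.411 TPM in +/Kl males. H2-Bl ranged over 1.2 to 2.07 TPM in Kl/Kl males, against 0.532 to 0.897 TPM in +/Kl males. They were 2 of 6 such genes, against 19.1% of all tested genes apart and higher in males. That share covers genes averaging 1 TPM or more, a minimum not applied to these 6, so the comparison is a loose one.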

How the results depend on the processing

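The count of class I genes called higher in males, 1 with all libraries, was 3 with a minimum of 0.3 TPM, 2 with median-of-ratios scaling, 2 with voom, 5 with the letters of the library name, 0 with a replicate block and 0 to 2 with 1 library left out (0 without male control 1 or male control 2, 2 without male Kl/Kl 3). Without male control 3 it was 4 with the scaling and 2 with the 0.3 TPM minimum. The counts at 0.3 TPM include H2-Q2, which entered that fit only through the Kl/Kl males, so they are descriptions. The count called lower was 1 with the scaling, with and without male control 3. Counts over all male genes, 500 at first, were 1182 with the scaling, 227 with the block, 1249 with the letters, 1421 with voom, 185 to 909 with 1 library left out (237, 276, 314 and 265 without male Kl/Kl 1, 2, 3 and 4, and 282, 185 and 909 without male controls 1, 2 and 3), 1149 with the scaling and 1093 with the 0.3 TPM minimum, both without male control 3. Over all female genes the count of 3 was 8 with no minimum, 0 with the block, 0 with voom and 2 to 9 with 1 library left out, 9 without Kl/Kl 3 and 5 without Kl/Kl 4. The cause was not tested.

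Small differences changed sign. In males B2m was -0.23 with the scaling, -0.10 with voom and -0.021 to 0.064 with 1 library left out. H2-Aa was -0.072 with the scaling and -0.047 to 0.35 with 1 left out. H2-Eb1 was -0.12 with the scaling, -0.064 with the block, -0.033 with voom and -0.11 to 0.29 with 1 left out. Cd74 was -0.15, -0.11 and -0.038 under the same 3 settings and -0.17 to 0.32 with 1 left out. In females H2-Ab1 was 0.15 with the scaling, 0.088 with voom and -0.35 to 0.15 with 1 left out, and Cd74 was 0.046 with the scaling and -0.60 to 0.38 with 1 left out. Leaving out 1 female library gave -0.11 to 0.47 for H2-Q4, -0.11 to 0.35 for H2-K1, -0.056 to 0.28 for H2-D1 and -0.038 to 0.30 for Tap1. The sex difference of the change was 0.17 for H2-D1 and 0.20 for Cd74 with the scaling, 0.062 and 0.54 without both libraries that stand apart, and -0.53 to -0.13 for H2-D1 and -0.68 to 0.29 for Cd74 with 1 left out.

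Same-numbered male libraries did not deviate together (correlations of -0.18 to 0.04). In females the correlations were -0.12 to 0.06 for replicates 1 to 3, and 0.29 for replicate 4, above the threshold of 0.1. With 1 such pair, the replicate block is given here and for H2-Q4 only. Class II counts in both sexes, class I counts in females and the count for the sex difference were 0 in each alternative run. Both transactivators lay under the 1 TPM minimum, which limits what can be said of them. Nlrc5 had few estimated reads, 26 to 61 in Kl/Kl males against 21 to 40 in +/Kl males. Ciita had more, an estimated 62 to 304 in Kl/Kl males against 154 to 220 in +/Kl males.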

Other observations

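In the library labelled female Kl/Kl 3 the class II chains and the invariant chain differed in their levels relative to the other female libraries. Its values go against its label of kidney, with summed tubule markers of 2.66 TPM, Nppa at 1185 TPM and the airway genes Scgb1a1 and Scgb3a1 at 362 and 420 TPM. H2-Aa was 23.7 TPM in it and Cd74 was 3.74 TPM, while in the other 3 Kl/Kl females H2-Aa was 11.4, 16.7 and 22.3 TPM and Cd74 13.2, 21.8 and 34.7 TPM. Its H2-Aa stood at 6.68 times H2-Ab1, against 1.90 to 2.53 times in the other Kl/Kl females. B2m (66.6 TPM) and Psmb8 (4.47 TPM) were the highest of the 8 female libraries in it, beside a Lyz2 level of 427 TPM.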
